A study of Mus musculus with 3 samples.

Results

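The killer cell lectin-like receptor family comprised 26 of the 32285 genes counted in cells sorted as leukocytes from naive and transplanted mouse left lungs. Members were taken by name alone, as every counted gene whose symbol starts with Klr, with annotated pseudogenes left out. All 26 held at least 10 unique molecular identifiers (UMIs, each standing for 1 captured transcript) over the 3 libraries, so all are named here. All lie on chromosome 6 of the GRCm38 assembly, and 24 of them, from Klrb1a to Klra2, sit in 1 gene complex between positions 128609227 and 131247362. Klrg1 and Klrg2 lie apart from it on the same chromosome.

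The data were single-cell RNA-Seq counts from 3 libraries, with cells of 2 mice pooled for each. The naive library came from left lungs of C57BL/6J mice without surgery. For the other libraries, a left lung of a B6 (CD45.2) donor, kept for 60 minutes in the cold and 45 minutes warm, was placed into a B6 mouse with the CD45.1 allele and reperfused for 2 hours or for 3 days. The strain entry of all 3 libraries is C57BL/6J. Cells were sorted for CD45.1, the recipient's form of the leukocyte antigen CD45, to take recipient leukocytes that had entered the graft. A cluster with endothelial markers, of 35 cells at 2 hours and 169 at 3 days, was also found, so the libraries did not hold leukocytes alone. The same sort is stated for the naive library, although a naive lung has no recipient and the B6 donors are given as CD45.2. Which form of CD45 the naive mice carried, and how their cells were sorted, could not be settled. This bears on every comparison with the naive library. Because each condition has 1 library, no test across mice could be made. The intervals below are 95% intervals for counting error only, and a difference between libraries cannot be told apart from a difference between the pooled mice or preparations. The sources do not agree on the kit used for each library, and only the transplant libraries held antibody features. A difference in kit thus cannot be told apart from condition either.

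Most of these genes encode C-type lectin-like receptors of natural killer (NK) cells, which read major histocompatibility complex (MHC) class I and related molecules on other cells. Inhibitory members carry a tyrosine-based motif (ITIM) in the cytoplasmic tail that recruits phosphatases, whereas activating members lack it and signal through adaptors such as DAP12 (Tyrobp) and DAP10 (Hcst). Each NK cell expresses its own subset of the Ly49 genes, so the cells of 1 mouse form a repertoire, and some members are also used by T cells, dendritic cells and myeloid cells.

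The distinction between activating and inhibitory Ly49 receptors can be read in the first bases of their coding sequences. These bases are shown because both activating genes are read as a group in the values that follow. Each line gives the first 45 coding bases of a Klra gene in the GENCODE annotation of GRCm38, 5′ to 3′, with codon 8, where the tyrosine of the motif is encoded in inhibitory members, in capitals.
Klra4: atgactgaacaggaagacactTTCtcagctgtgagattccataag
Klra8: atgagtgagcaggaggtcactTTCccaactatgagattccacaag
Klra9: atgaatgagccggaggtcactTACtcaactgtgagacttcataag
Klra7: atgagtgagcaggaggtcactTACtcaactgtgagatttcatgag
Klra3: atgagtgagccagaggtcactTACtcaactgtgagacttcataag
Klra1: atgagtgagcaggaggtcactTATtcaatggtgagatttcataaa
Klra5: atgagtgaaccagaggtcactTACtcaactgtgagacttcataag
Klra6: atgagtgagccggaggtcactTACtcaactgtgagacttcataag
Klra10: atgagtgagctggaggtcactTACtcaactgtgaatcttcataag
Klra17: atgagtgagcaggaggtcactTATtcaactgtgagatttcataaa
Klra2: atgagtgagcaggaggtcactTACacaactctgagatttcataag
Codon 8 was TAC in 7 genes and TAT in 2, both tyrosine codons, and TTC in the remaining 2, Klra4 and Klra8. Counted from 1 at the first coding base, both differ there from Klra9 by A23T. Klra4 encodes Ly49D and Klra8 encodes Ly49H, the activating receptors of this strain that pair with DAP12.

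Close relatives share sequence, which bears on how their reads could be counted. Of all 60-base windows of a gene's transcripts, 27.3% of those of Klra8, 22.2% of those of Klra9, 26.8% of those of Klra10 and 32.5% of those of Klrc1 also occurred in another Klr gene or pseudogene. The share was 2.61% for Klra4 and 0 for Klrd1, Klrk1, Klre1, Klra2 and Klra17. In all, 16 of 26 members shared at least 1 window, and their levels are uncertain to the extent that reads were split or discarded. Klrb1f and Klra17 each overlap a counted gene on the opposite strand.

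After the cell filters, 2422 naive cells, 10283 cells of the 2-hour graft and 8324 of the 3-day graft remained, with a median of 7299, 878 and 5717 UMIs per cell. Of the cell barcodes, 8 were shared by the naive and 2-hour libraries, 1 by the naive and 3-day libraries and 23 by the transplant libraries. Clusters were built without any Klr gene and named from markers that hold none. The NK-like cluster of each library held 500, 1007 and 344 cells. All 11 NK markers were detected in it, among them Ncr1, the NK cell receptor NKp46, at 388, 105 and 222 counts per 1000000 UMIs (CPM), against 7.98, 0 and 1.6 CPM in T-like cells. The NK-like cells at 2 hours stood apart in other ways. Their median depth was 840 UMIs, against 7765 in naive lungs and 5216 at 3 days. A UMI of Cd3d, Cd3e or Cd3g was found in 19.1% of them, against 8.20% and 14.2%, and Il7r, a cytokine receptor of T cells and innate lymphoid cells, stood at 244 CPM, against 7.61 and 35.9 CPM. The 10 T cell markers summed to 933 CPM in naive NK-like cells, 1696 at 2 hours and 1019 at 3 days, and the 9 neutrophil markers to 390, 2028 and 4413 CPM.

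Most of the family was concentrated in NK-like cells. Members took 0.755% of all UMIs of these cells in naive lungs, 0.412% at 2 hours and 0.584% at 3 days, against 0.0493%, 0.0104% and 0.0359% in T-like cells and at most 0.0030% in B-like cells, which are not known to use these receptors. Over 50% of a member's UMIs over all kept cells lay in NK-like cells for 23 of 26 members of naive cells, 23 of 25 detected at 2 hours and 17 of 26 after 3 days. These counts also depend on how many NK-like cells a library held, 500 of 2422, 1007 of 10283 and 344 of 8324 kept cells. No share over all genes stands beside them, so they are not compared between libraries. A level was counted as higher in NK-like than in T-like cells where the ratio was at least 4-fold and its interval excluded 1. By this measure 21 of 24 members with at least 10 UMIs were higher in naive lungs, against 6.07% of all genes. At 2 hours it was 19 of 20 members, against 4.74% of genes, and at 3 days 18 of 23, against 4.07%.

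Klra4, for the activating receptor Ly49D, stood at 968 CPM in naive NK-like cells, 337 CPM after 2 hours and 746 CPM after 3 days. The log2 ratio to T-like cells was 6.39 [6.04 to 6.76] in naive lungs and 8.19 [7.61 to 8.83] at 3 days. Klrd1, the CD94 chain that pairs with NKG2 receptors, was less restricted than Klra4. Its log2 ratio of NK-like to T-like cells was 1.86 [1.76 to 1.96] in naive lungs, 2.30 [2.05 to 2.55] at 2 hours and 2.12 [2.00 to 2.24] at 3 days. After each cell was thinned to 500 UMIs, a member was seen in 96.2% of naive NK-like cells, 79.8% at 2 hours and 93.6% at 3 days, against 1.81%, 0.88% and 0.70% of B-like cells. Without thinning the shares in NK-like cells were 100%, 89.8% and 100%.

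**Figure D1:**
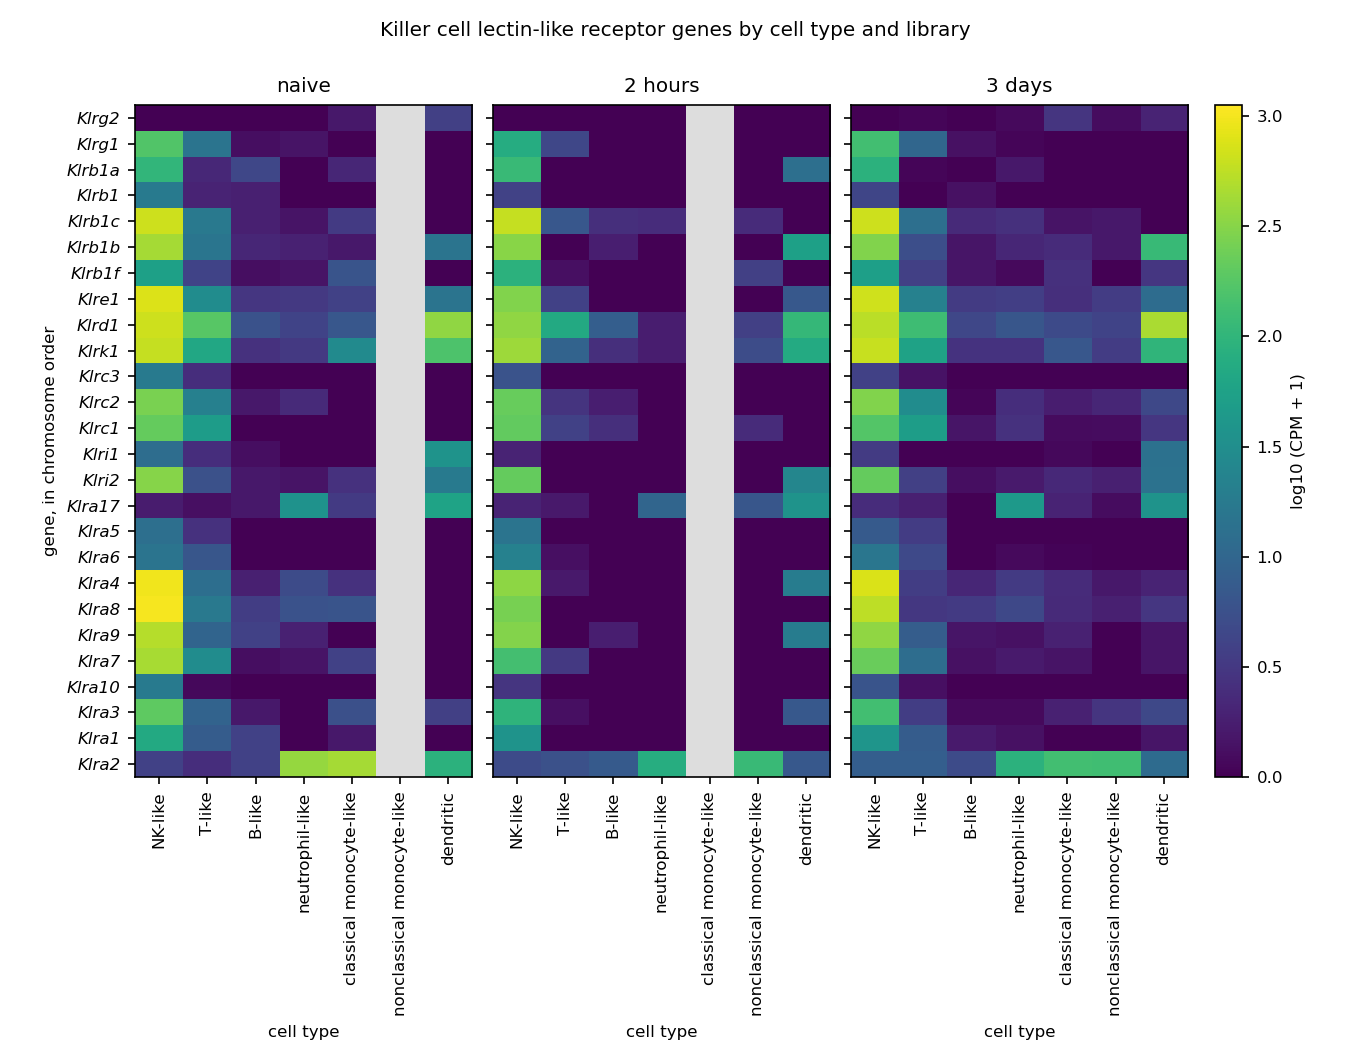
Levels of the 26 genes (rows, in chromosome order) in 7 cell types (columns) of each library, as color on a scale of log10 of CPM plus 1; gray marks types with under 20 cells. The NK-like column is bright for most genes in all 3 libraries, Klra2 is bright in neutrophil-like and monocyte-like cells instead, and Klrd1 and Klrk1 are also bright in dendritic cells.

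NK-like cells at 2 hours differed from those of both other libraries in which receptors made up the family. This was read as the share of each receptor group among all UMIs of the 26 members, a measure chosen after the values had been seen, because it does not depend on how many other cells the NK-like cluster held unless these express the family themselves. The 2 activating Ly49 genes took 26.4% [25.9 to 26.9] of the family's UMIs in naive lungs, 14.6% [13.5 to 15.7] at 2 hours and 22.4% [21.7 to 23.1] at 3 days. The 5 Nkrp1 genes, a neighboring group whose known ligands are lectin-like Clec2 proteins, ran the other way, with 16.6% [16.2 to 17.0], 27.5% [26.2 to 28.9] and 18.7% [18.0 to 19.4]. For both groups the 2-hour library lay outside the intervals of both other libraries. A share can rise because other members fall. In CPM the log2 ratio of 2 hours over naive was -0.12 [-0.25 to 0.01] for Klrb1c and -0.41 [-0.59 to -0.24] for Klrb1b. It was -2.52 for Klrb1, on 3 UMIs at 2 hours. For Klrb1a it was 0.21 [-0.09 to 0.51] and for Klrb1f 0.76 [0.39 to 1.11]. The naive library was counted with another version of Cell Ranger. Condition, software and preparation, with a kit that is not settled, thus cannot be told apart in shares compared with it.

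Klra8, for Ly49H, which is known for binding a protein of mouse cytomegalovirus, took 13.6%, 6.40% and 9.61% of the family's UMIs in naive, 2-hour and 3-day NK-like cells. Klra4 took 12.8%, 8.18% and 12.8%. Klre1, whose product pairs with Klri1 or Klri2, took 10.3%, 7.19% and 11.6%. These were the 3 members with a higher share at 3 days than at 2 hours by intervals that did not overlap, while 8 members had a lower share and 15 neither. The 8 were Klrb1a, Klrb1c, Klrb1b, Klrb1f, Klrc1, Klri2, Klra5 and Klra9, 4 of which are Nkrp1 genes. The call of Klra5, on 14 UMIs at 2 hours and 13 at 3 days, was kept in 1 of 7 settings of choosing or thinning the cells. Those of Klrb1a, Klrb1f, Klrc1, Klri2, Klra9 and Klra8 were kept in 6, and those of Klrb1c, Klrb1b, Klra4 and Klre1 in all 7. These shares are taken within the family, so no share over all genes stands beside the counts.

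Klrb1c, which encodes the NK cell antigen NK1.1, had the largest of these opposite shifts in share. It took 8.64% of the family's UMIs in naive lungs, 14.6% at 2 hours and 11.2% at 3 days. Klrb1b, an inhibitory receptor for Clec2d, took 5.74%, 7.89% and 5.02%. The 6 inhibitory Ly49 genes together took 16.6% [16.2 to 17.1], 14.8% [13.7 to 15.9] and 13.1% [12.5 to 13.7], and the intervals at 2 hours and 3 days overlapped. Both lay below the naive interval, a call kept in 6 of 7 settings for each. Among these inhibitory genes, Klra7 took 5.99%, 3.31% and 3.88%, and was lower at 2 hours than in naive lungs, as the activating genes were. Klra6 was higher there, at 0.183%, 0.507% and 0.254%, a call on 21 UMIs at 2 hours that was kept in 3 of 7 settings. In CPM its log2 ratio of 2 hours over naive was 0.60 [-0.20 to 1.34]. For the other inhibitory genes the naive and 2-hour intervals overlapped. The direction of the shift between 2 hours and 3 days held for activating Ly49 and Nkrp1 genes in all 7 settings of choosing or thinning the cells. The difference ranged from 6.02 to 9.40 percentage points for activating Ly49 genes and from -9.20 to -8.30 points for Nkrp1 genes.

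**Figure D2:**
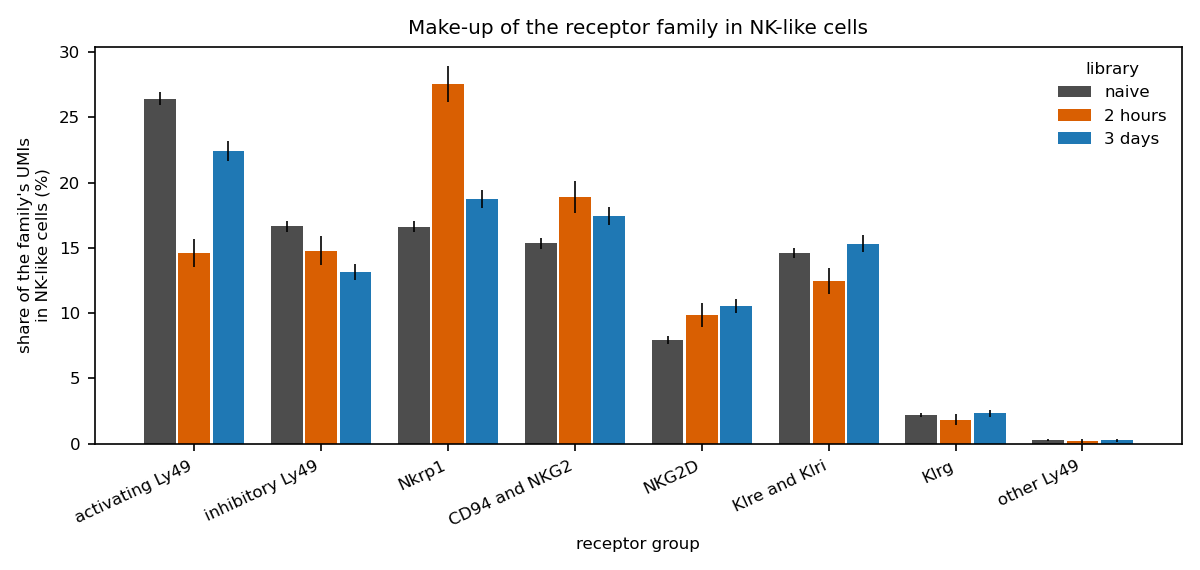
Share of the family's UMIs in NK-like cells (y axis, percent, from 0) taken by each receptor group (x axis) in each library, with 95% counting intervals. Activating Ly49 genes took 14.6% at 2 hours against 26.4% and 22.4% in the other libraries, and Nkrp1 genes took 27.5% against 16.6% and 18.7%.

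CPM levels of NK-like cells were then compared between libraries, where a gene counted as higher or lower if it differed at least 2-fold and its interval excluded no difference. From 2 hours to 3 days, the comparison within the same counting software, 3 of 23 members with at least 10 UMIs were higher and 0 were lower, against 11.7% and 6.24% of all genes. The share of members called thus lay near that of all genes. The median log2 ratio was 0.17 over members and 0.25 over all genes. The whole family stood 1.42-fold higher at 3 days, a log2 ratio of 0.50 [0.45 to 0.55].

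Klra4 was 2.21-fold higher at 3 days than at 2 hours, a log2 ratio of 1.15 [0.98 to 1.32] between its 337 and 746 CPM. Klra8 stood at 1026 CPM in naive lungs, 264 CPM after 2 hours and 561 CPM after 3 days, and its log2 ratio of 3 days over 2 hours was 1.09 [0.90 to 1.29]. Klre1 stood at 778, 296 and 678 CPM, with a log2 ratio of 1.19 [1.01 to 1.38]. All 3 calls depended on which cells were taken as NK-like. They also depended on depth and scaling. Within the NK-like clusters, fewer than 3 members remained 2-fold higher after thinning or with median-of-ratios size factors. With cells that held a Cd3 UMI left out, the log2 ratios of Klra4, Klra8 and Klre1 were 0.82, 0.72 and 0.89, no member remained 2-fold higher, and that of the whole family was 0.24. With NK cells called one by one, the count was also 0, and the ratio of the family 0.16. The part of other cells in the 2-hour cluster in these differences was not tested further.

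No other member met both conditions between the transplant libraries, though the intervals of several excluded no difference. Klrb1c stood at 653 CPM in naive lungs, 602 CPM after 2 hours and 654 CPM after 3 days, with a log2 ratio of 0.12 [-0.02 to 0.26] between the transplant libraries. Klrk1, which encodes NKG2D, a receptor for stress-induced ligands, stood at 600, 405 and 614 CPM, with a log2 ratio of 0.60 [0.44 to 0.77]. Klrb1f, whose product binds Clec2g, stood at 53.0, 89.5 and 51.3 CPM, with a log2 ratio of -0.80 [-1.22 to -0.38]. Klrb1f, Klrb1a and Klrc1 were the 3 members with an interval wholly below 0 in this comparison, none of them 2-fold lower.

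CD94 and NKG2A form a receptor pair that reads the peptide-presenting molecule Qa-1 (H2-T23) and inhibits. Their RNA levels moved in opposite directions from 2 hours to 3 days, and the receptors themselves were not read. Klrd1, for CD94, stood at 659, 344 and 545 CPM, a log2 ratio of 3 days over 2 hours of 0.66 [0.49 to 0.84]. Klrc1, for NKG2A, stood at 212, 208 and 170 CPM, a log2 ratio of -0.29 [-0.54 to -0.04]. Klrc2, for the activating relative NKG2C, stood at 271, 220 and 299 CPM. Klrc1 and Klrc2 share sequence, so their split is less certain than that of Klrd1.

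**Figure D3:**
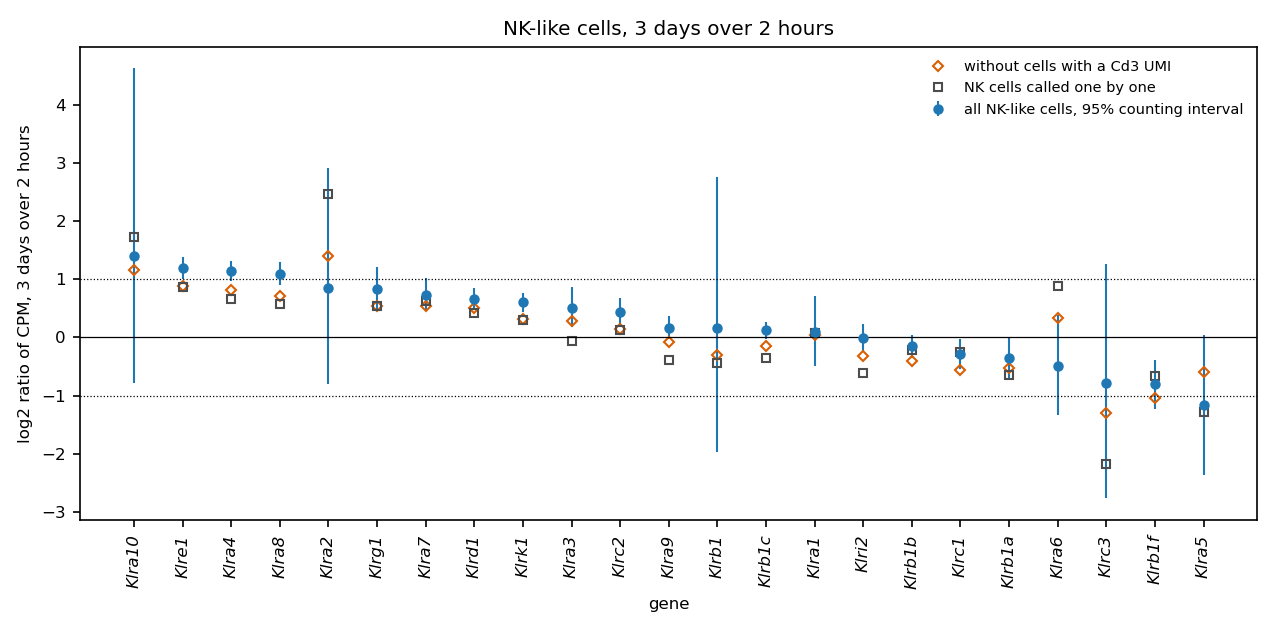
Log2 ratio of CPM in NK-like cells at 3 days over 2 hours (y axis) for the 23 members with at least 10 UMIs (x axis), with 95% counting intervals; open symbols give the ratio with cells holding a Cd3 UMI left out and with NK cells called one by one. Klre1, Klra4 and Klra8 lie above the dotted line of a 2-fold difference for all NK-like cells and below it for both open symbols.

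Against the naive library, 10 of 24 members were lower at 2 hours and 0 higher, where 23.1% of all genes were lower and 8.24% higher. The 10 were Klra3, Klra4, Klra7, Klra8, Klra10, Klrb1, Klrc3, Klre1, Klrg1 and Klri1. Of these, Klra10, Klrb1, Klrc3 and Klri1 held at most 5 UMIs each at 2 hours. The median log2 ratio was -0.84 over members and -0.33 over all genes. The naive library was counted with another version of Cell Ranger, so that condition and software cannot be told apart here. Klra7, for the inhibitory receptor Ly49G, stood at 452 CPM in naive lungs, 136 CPM after 2 hours and 227 CPM after 3 days. Its log2 ratio of 2 hours over naive was -1.73 [-1.99 to -1.48], and that of Klra8 -1.96 [-2.14 to -1.78].

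At 3 days 4 of 24 members were lower than in naive lungs and 1 was higher, where 18.1% of all genes were lower and 6.49% higher. The lower ones, Klra10, Klrb1, Klrc3 and Klri1, held at most 11 UMIs each at 3 days. The higher one was Klra2, at 2.85 CPM in naive NK-like cells and 7.19 CPM at 3 days. It reached the same level of 7.15 CPM in T-like cells at 3 days, and its log2 ratio of NK-like to T-like cells there was 0.01 [-0.91 to 0.83]. Klra8 stayed below its naive level, with a log2 ratio of -0.87 [-0.96 to -0.78], whereas Klrb1c, Klrk1 and Klrc2 lay at 0.00 [-0.09 to 0.10], 0.04 [-0.06 to 0.13] and 0.14 [-0.00 to 0.28].

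**Figure D4:**
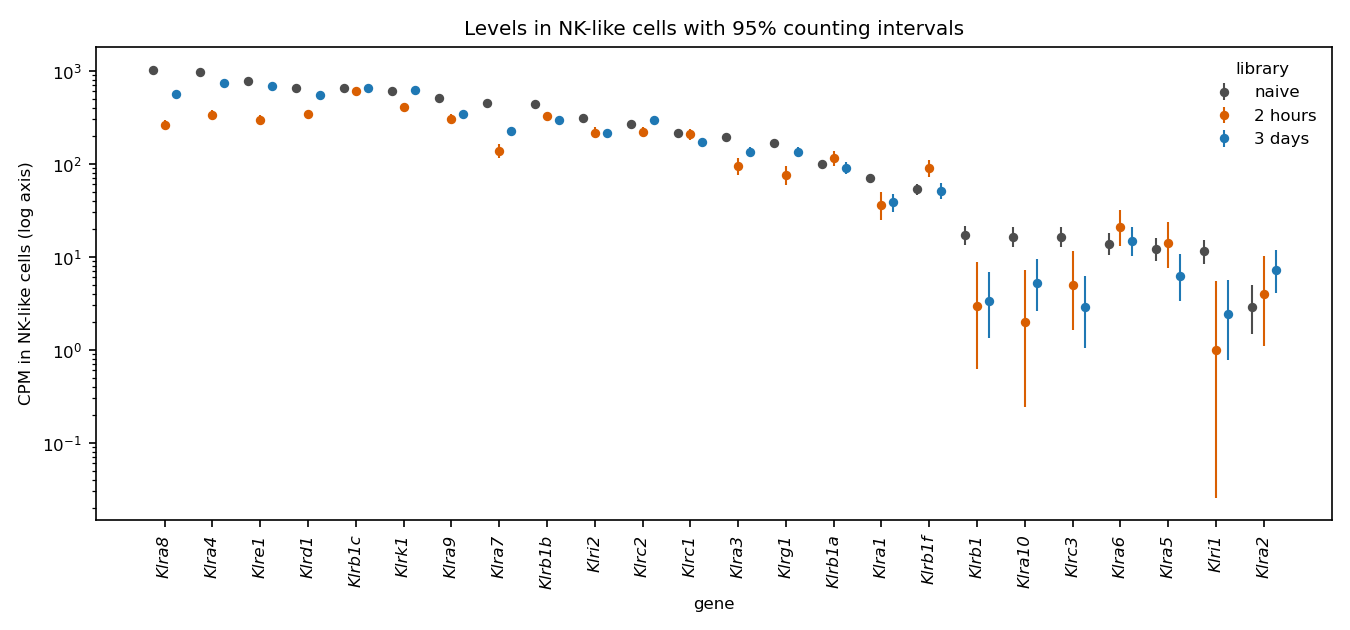
CPM in NK-like cells (log y axis) of the 24 members with at least 10 UMIs there (x axis, ordered by the naive level), by library, with 95% counting intervals. The 2-hour points of Klra8, Klra4, Klre1 and Klra7 lie furthest below the naive points among abundant members, and the points of Klrb1c lie together at 602 to 654 CPM.

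Genes of the signaling pathway gave a frame for these levels. The DAP12 adaptor gene Tyrobp stood at 2181, 1995 and 2413 CPM in NK-like cells of naive, 2-hour and 3-day libraries, and the DAP10 adaptor gene Hcst at 516, 938 and 522 CPM. None of 4 adaptor genes differed 2-fold between 2 hours and 3 days. Of 8 genes for kinases and their partners, 2 were higher at 3 days and none lower, where 11.7% of all genes were higher and 6.24% lower. The 2 were Syk, with a log2 ratio of 1.17, and Plcg2, with 1.41. Of 3 phosphatase genes, Ptpn6, which encodes SHP-1, was higher, at 1.15. The 11 NK markers used to name the cluster had a median log2 ratio of 0.63 in the same comparison.

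Ligand genes were read in the same cells. H2-T23, for Qa-1, stood at 224, 136 and 248 CPM in NK-like cells, and Clec2d, the ligand of the Klrb1b product, at 94.2, 130 and 137 CPM. Of 9 ligand genes with enough UMIs, 1 was higher at 3 days than at 2 hours, near the 11.7% of all genes. It was H2-K1, for a classical MHC class I chain, with a log2 ratio of 1.23. Raet1e, for an NKG2D ligand, stood at 85.6 CPM in NK-like, 119 CPM in T-like and 162 CPM in B-like cells of the naive library. In the transplant libraries it held 0 UMIs in NK-like and T-like cells, and 0 and 2 UMIs in B-like cells. Condition and counting software again cannot be told apart for it.

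Single cells showed how the Ly49 genes were combined, in the naive and 3-day libraries thinned to 2000 UMIs per cell. Of 9 Klra genes, leaving out the myeloid members Klra2 and Klra17, a naive NK-like cell showed 2.30 on average, with an SD between cells of 1.19 (497 cells), and a 3-day cell 1.98 with an SD of 1.19 (339 cells). At least 2 were seen in 74.2% of naive and 64.6% of 3-day cells, and none in 5.63% and 11.5%. These values move with depth: in naive cells the average was 1.72 at 1000 UMIs and 2.87 at 5000, and the share with none was 12.2% and 2.4%.

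Among 105 pairs of 15 members, 2 were found together more often and 3 less often in both libraries, by intervals that did not overlap. No share over pairs of other genes stands beside these counts, so the number of pairs is not read as a trait of the family. Both activating Ly49 genes went together. Klra8 was seen in 69.0% of naive cells with Klra4 and in 49.8% of those without, and at 3 days in 57.8% and 39.5%. Klrc1 was rarer where Klra4 was seen, in 13.8% of naive cells with it and 39.2% without, and at 3 days in 8.02% and 32.2%. Klrc1 was likewise rarer with Klra7, at 19.0% against 32.1% in naive lungs and 4.76% against 23.5% at 3 days.

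Klrb1b sided with Klrc1. It was seen in 60.3% of naive cells with Klrc1 and 41.8% of those without, and at 3 days in 57.8% and 28.4%. With Klra4 it was rarer, at 34.1% against 58.1% in naive lungs and 21.4% against 49.3% at 3 days. The cells of a library came from the same 2 mice and are not replicates, so these intervals describe counting only.

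**Figure D5:**
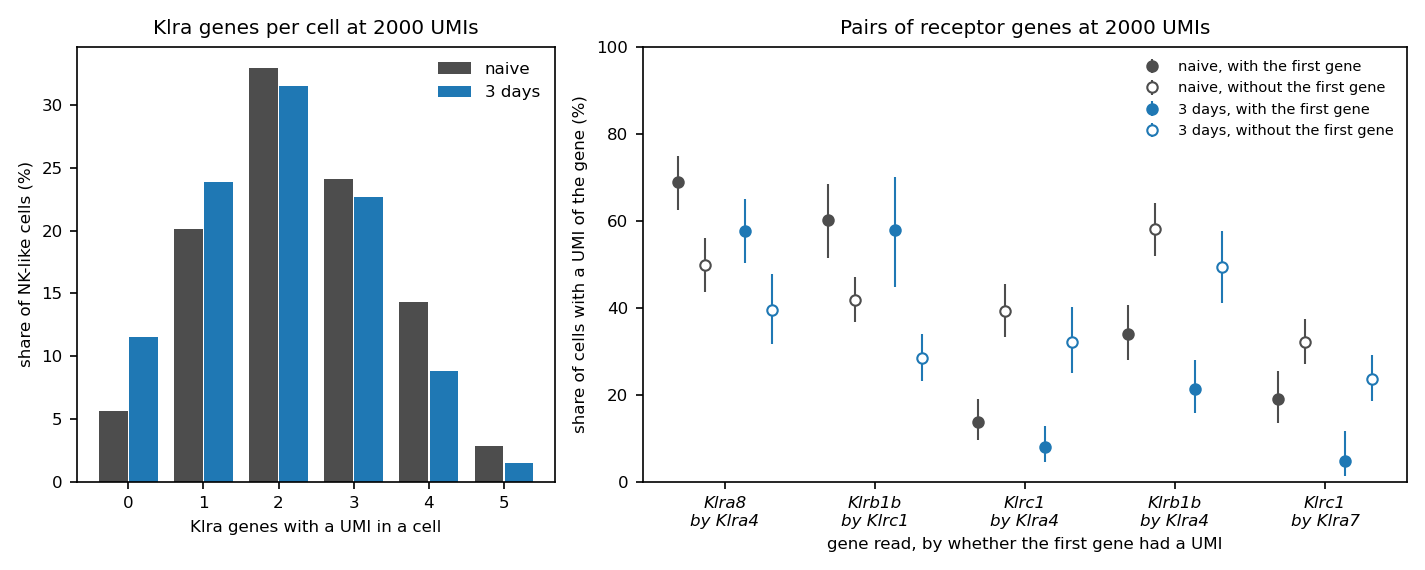
Left, share of NK-like cells (y axis, percent) by the number of Klra genes with a UMI at 2000 UMIs per cell (x axis). Right, share of cells with a UMI of the gene named on top (y axis, percent, 95% counting intervals) among cells with (filled) and without (open) the gene named below it. Filled points lie above open ones for Klra8 by Klra4 and for Klrb1b by Klrc1, and below them for the other 3 pairs, in both libraries.

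NK-like cells were also divided by whether more UMIs of a list of genes of mature NK cells, such as Itgam and S1pr5, or of less mature ones, such as Cd27 and Il7r, were counted in them. The first list led in 397 naive and 250 3-day cells and the second in 78 and 73, while 65 and 42 cells lay within 1 UMI of a tie. Klrg1, a receptor for cadherins known from mature NK cells, was seen in 29.5% of naive cells led by the mature list and 7.69% of the others, and at 3 days in 26.4% and 6.85%, with intervals that did not overlap. Klra9, for the inhibitory receptor Ly49I, followed the same order, at 54.4% against 35.9% in naive lungs and 44.4% against 17.8% at 3 days. For Klra4 the intervals overlapped in both libraries, with 47.1% against 42.3% in naive lungs and 52.4% against 60.3% at 3 days. Both lists also differed at 2 hours. Against naive NK-like cells, 3 of 10 less mature genes were higher and 0 lower. Of 7 mature genes 0 were higher and 2 lower, where 8.24% of all genes were higher and 23.1% lower. From 2 hours to 3 days, 2 less mature genes were lower and 2 mature genes higher, where 6.24% and 11.7% of all genes were. The part of this in the receptor shares was not tested.

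In T-like cells, of which there were 592, 2515 and 1036, the family was led by Klrd1, at 181, 69.7 and 126 CPM in the naive, 2-hour and 3-day libraries. Klrk1 followed at 67.1, 8.28 and 56.1 CPM and Klrc1 at 47.7, 2.87 and 48.4 CPM. All 3 were lowest at 2 hours. Klrb1c, at 16.1, 5.73 and 12.2 CPM, was low beside its 602 to 654 CPM in NK-like cells.

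T-like cells with a UMI of Cd8a or Cd8b1 were set against those with a UMI of Cd4. Of 12 members with at least 10 UMIs in naive lungs, 5 were at least 4-fold higher in CD8 T cells, where 1.39% of all genes were. At 3 days it was 8 of 17, against 1.04%, and at 2 hours the only member that could be read, Klrd1, against 1.21%. Klrd1 stood at 310 CPM in CD8 and 37.2 CPM in CD4 T cells of naive lungs, at 159 and 11.2 CPM at 2 hours, and at 201 and 14.2 CPM at 3 days. The log2 ratios were 3.06 [2.71 to 3.43], 3.83 [1.94 to 6.90] and 3.82 [3.35 to 4.35].

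Klrd1, Klre1, Klrc1, Klra6 and Klra7 passed in both deep libraries, and Klrc2, Klra1 and Klra3 at 3 days. Klra6, for the inhibitory receptor Ly49F, held 21 UMIs in naive CD8 T cells and 19 at 3 days, and 0 in CD4 T cells of either library. At 3 days 49.3% of all Klra6 UMIs and 62.2% of all Klra5 UMIs lay in T-like cells, 35 of 71 and 23 of 37. In naive lungs 63.0% and 83.6% lay in NK-like cells. Such shares also depend on how many cells of each type a library held. In CPM of NK-like cells, Klra6 had a log2 ratio of 3 days over naive of 0.11 [-0.57 to 0.76]. That of Klra5 was -0.96 [-1.96 to -0.06].

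Klrg1 ran the other way among T cells at 3 days. It stood at 14.6 CPM in CD4 T cells, on 37 UMIs, and at 4.52 CPM in CD8 T cells. The log2 ratio of CD8 over CD4, -1.69 [-2.52 to -0.89], did not pass the 4-fold rule. Cells with a UMI of Foxp3 were chosen among all T-like cells, so they can share UMIs with the CD4 T cells. In the 48 T-like cells with a UMI of Foxp3, the regulatory T cell factor, Klrg1 stood at 97.4 CPM [67.9 to 136] on 35 UMIs at 3 days. It had the like level of 96.6 CPM [35.4 to 210.2] on 6 UMIs in 41 such cells at 2 hours, and 5.74 CPM [0.145 to 32.0] on 1 UMI in 18 such cells of naive lungs. T-like cells with a UMI of Trdc or Tcrg-C1 and none of Cd4 or Cd8, as gamma-delta T cells would have, carried Klrk1 at 265 CPM in naive lungs (37 cells), 119 CPM on 5 UMIs at 2 hours (29 cells) and 258 CPM at 3 days (65 cells). At 3 days they held 13 of the 23 Klra5 UMIs of T-like cells, at 22.9 CPM, and 0 Klra5 UMIs in naive lungs. Klra7 stood there at 188 CPM on 66 UMIs in naive lungs and 12.4 CPM on 7 UMIs at 3 days.

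Dendritic cells carried a part of the family, led by Klrd1 as in T-like cells. The cluster, of 23, 65 and 114 cells, held Klrd1 at 349, 107 and 462 CPM and Klrk1 at 157, 71.6 and 97.6 CPM. Klrb1c, at over 600 CPM in NK-like cells, held 0 UMIs there in each library, which allows up to 8.26, 17.9 and 1.52 CPM. Where markers of plasmacytoid dendritic cells led, Klrd1 reached 586 CPM on 367 UMIs at 3 days (39 cells), and where those of conventional dendritic cells led, 401 CPM on 522 UMIs (72 cells). Klrb1b was found at 153 CPM in the latter and at 35.1 CPM in the former, and the inhibitory member Klri1 at 19.2 CPM on 25 UMIs in the latter, 75.8% of its 33 UMIs over kept cells at 3 days.

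A pair of Ly49 genes was expressed outside the lymphoid lineages. Klra2, for Ly49B, stood at 366 CPM in neutrophil-like cells of naive lungs, 79.0 CPM after 2 hours and 90.6 CPM after 3 days. The log2 ratio was -2.21 [-2.51 to -1.92] for 2 hours over naive, -2.01 [-2.15 to -1.88] for 3 days over naive and 0.20 [-0.09 to 0.50] between the transplant libraries. Among cells thinned to 500 UMIs, it was seen in 16.0%, 4.2% and 4.55% of neutrophil-like cells and in 0, 0.52% and 0.16% of B-like cells.

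No monocyte type could be read for Klra2 in all 3 libraries. Classical monocyte-like cells had 437 CPM in naive lungs and 134 CPM at 3 days, a log2 ratio of -1.70 [-1.82 to -1.58], with 1 such cell at 2 hours. Nonclassical monocyte-like cells had 115 CPM after 2 hours and 128 CPM after 3 days, a log2 ratio of 0.16 [-0.18 to 0.51], with 4 such cells in the naive library. Alveolar macrophage-like cells, found in naive lungs, had 137 CPM, and macrophage-like cells at 3 days 25.8 CPM. At 2 hours 50.1% of the Klra2 UMIs over kept cells, 240 of 479, lay in unnamed clusters, at 95.2 CPM. The largest of these, with 2919 cells at 2 hours, had 7 of 9 neutrophil markers over a log2 ratio of 1 but stayed unnamed because its leading genes, with Scgb1a1, Cxcl3 and Clec4n first, held more markers of another type. The neutrophil-like values at 2 hours thus rest on 1483 cells and leave that cluster out. In the unnamed clusters together Klra17 stood at 8.73 CPM at 2 hours.

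Klra17, for Ly49Q, known from plasmacytoid dendritic cells and neutrophils, stood at 34.6, 8.78 and 42.2 CPM in neutrophil-like cells. The log2 ratio of 3 days over 2 hours was 2.27 [1.45 to 3.23] on 439 and 12 UMIs, and that of 3 days over naive 0.29 [-0.06 to 0.66]. Klra2, in contrast, was lower at 3 days than in naive neutrophil-like cells. For both genes, condition and counting software cannot be told apart in the ratios to naive, and the handling of intronic reads is unknown. Where plasmacytoid markers led among dendritic cells, Klra17 stood at 96.3 CPM on 13 UMIs, 122 CPM on 6 UMIs and 92.6 CPM on 58 UMIs. Klrg2, with 13, 0 and 62 UMIs over all cells, held none in NK-like cells, and 26 of 48 UMIs in kept cells at 3 days lay in classical monocyte-like cells. That share also depends on how many UMIs each type held. Klrg2 stood at 1.98 CPM there, at 1.51 CPM on 14 UMIs in macrophage-like cells and at 3.20 CPM on 2 UMIs in endothelial-like cells.

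The start regions of a Ly49 gene used in NK cells and of one used in myeloid cells are shown because the genes are read in different cell types although the sequences are related. Both cover 300 bases, 250 before and 50 after the gene start in RefSeq's annotation of GRCm38.p6, on the minus strand, 5′ to 3′. Capitals mark TATAAA on either strand, and the RUNX motif TGTGGT was searched in the same way.
Klra8, chr6:130129849-130130148: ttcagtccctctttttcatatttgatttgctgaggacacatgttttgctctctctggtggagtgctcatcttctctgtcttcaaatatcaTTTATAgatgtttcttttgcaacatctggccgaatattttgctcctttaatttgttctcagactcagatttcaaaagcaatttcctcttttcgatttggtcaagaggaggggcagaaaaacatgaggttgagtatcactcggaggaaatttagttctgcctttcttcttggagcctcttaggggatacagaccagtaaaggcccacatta
Klra2, chr6:131247313-131247612: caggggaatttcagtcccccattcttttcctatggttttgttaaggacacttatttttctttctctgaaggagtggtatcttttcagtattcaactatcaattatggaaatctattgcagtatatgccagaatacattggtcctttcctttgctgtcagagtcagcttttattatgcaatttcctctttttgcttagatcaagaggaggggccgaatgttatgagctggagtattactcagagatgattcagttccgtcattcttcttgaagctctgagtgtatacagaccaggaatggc
In the best local alignment the 2 windows were 77.0% identical over 287 bases. The window of Klra17 and that of Klra8 were 86.3% identical over 278 bases. TATAAA occurred on either strand in 9 of the 23 members with a window, Klra8 and 6 other Klra genes among them, and in 15.7% of all genes. TGTGGT occurred in 8 of 23 members, of which Klra1 was the only Ly49 gene, and in 18.9% of all genes. The AP-1 motif TGAGTCA occurred in 3 of 23, Klrc2, Klrc3 and Klrk1, and in 5.95% of all genes. The longer motifs AGGTGTGA (T-box), GAGGAAGT (PU.1), CCGGAAGT (ETS) and TGACGTCA (CRE) occurred in 0 of 23, and in 1.48%, 3.69%, 4.31% and 2.03% of all genes, so that few or no matches among 23 genes say little. A match of letters is a description of the window and not a bound site.

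The transplant libraries also held counts of 277 antibody features. The 5 named after killer lectin-like receptors held 19 UMIs at 2 hours and 11 at 3 days in all, and none over 18, fewer than any of the 9 isotype controls, each of which held at least 136. No comparison of these receptors at the cell surface was possible.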

How the data were processed

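Single-cell RNA-Seq of left lung cells, stated to be sorted as CD45.1+, was counted by the authors with Cell Ranger against the mm10 mouse genome. The submitters' notes name Cell Ranger 6 and Seurat 4, while the deposited matrix headers name version 7.1.0 for the naive and 6.0.0 for the transplant libraries. The deposited values are raw UMI counts per gene and called cell, with no normalization. Whether intronic reads were counted, and which kit was used for each library, is not given in 1 agreed form in the sources used here. The libraries held 28538529 (naive), 10749100 (2 hours) and 70750470 (3 days) gene UMIs in 2921, 10328 and 9016 cells.

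The cell filter asked for 200 to 6000 genes, fewer than 25000 UMIs and a mitochondrial share below 10%. Remaining cells were normalized with sctransform 0.4.2 and clustered in Seurat 5.3.0 (R 4.3.3; 30 components, resolution 0.8) with Klr genes left out of the variable features. A cluster was named for the type whose markers, none a Klr gene, had a median log2 ratio over 1 with at least 3 above it, unless its 10 leading genes held more markers of another type or its cells were far shallower than their libraries and led by none of that type's markers. Doublets called by Scrublet (scanpy 1.11.5) were kept in the main values, 5, 96 and 28 of them among NK-like cells, and removed in an alternative. UMIs were summed per cell type and library and given as CPM of all gene UMIs with exact Poisson intervals. UMIs stand for transcript ends, so no length correction was made. Ratios carry exact conditional intervals and shares exact Clopper-Pearson intervals, all for counting error only, and a count of 0 allows up to 3 counts. Genes with at least 10 UMIs over both sums were compared (scipy 1.17.1, numpy 2.4.6, pandas 2.3.3, Python 3.11.15). With 1 library per condition no p-value was computed. The ratio code was tested on simulated data.

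Every member with at least 10 UMIs over the 3 libraries was to be named. Members, receptor groups, gene lists and the share of the family's UMIs were chosen with earlier results of these data known. Of the gene identifiers, 32158 of 32285 were found in GENCODE vM21, including all 26 members. Start regions came from RefSeq, which gave one for 23 members. Alternatives changed the cell filter, clustering, calling of NK cells, doublets, depth, scaling, minimum count and fold. Antibody counts were not compared.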

Additional observations from a re-analysis of the deposited data

How the results depend on the processing

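In NK-like cells the log2 ratio of the family's summed CPM at 3 days over 2 hours, 0.50 in the report, was 0.45 without the cell filter, 0.59 with Klr genes used in clustering, 0.21 after log-normalization, 0.16 with NK cells called one by one, 0.24 without cells holding a Cd3 UMI, 0.34 at 500 UMIs per cell, 0.33 with median-of-ratios size factors and 0.40 as a mean over cells. That of 2 hours over naive, -0.87, was -0.80 without the filter and also outside ribosomal and mitochondrial genes, -0.47 after log-normalization, -0.77 without doublets, -0.70 called one by one, -0.57 without Cd3 cells, -0.73 thinned, -0.68 with size factors and -0.72 as a mean over cells. That of 3 days over naive, -0.37, was -0.33 with Klr genes, -0.26 after log-normalization, -0.29 without doublets, -0.54 called one by one, -0.34 without Cd3 cells, -0.31 outside ribosomal and mitochondrial genes and -0.32 as a mean over cells. The cause of these shifts was not tested.

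The 3 members higher at 3 days than at 2 hours became 0 after log-normalization, called one by one or without Cd3 cells, 1 when thinned or with size factors, and 7 at a fold of 1.5. The count lower became 1 without the filter, without Cd3 cells, with size factors and at a fold of 1.5. At 2 hours over naive, the count higher became 1 after log-normalization, without Cd3 cells and at a fold of 1.5, and the 10 lower became 6 after log-normalization. At 3 days over naive, the 1 higher became 0 without the filter, after log-normalization, thinned and at a minimum of 30 UMIs, and the 4 lower became 1 when thinned and 8 at a fold of 1.5. No share over all genes is given for these settings, so these counts are not read as a trait of the family. Klrc3 at 2 hours over naive reversed to 0.050 when thinned. The share of NK-like cells with any member was 99.6% in naive lungs and 98.5% at 3 days at 1000 UMIs, and 100%, 89.8% and 100% unthinned.

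Ratios of single members under an alternative were classed as same, moved or reversed. Of those of 3 days over 2 hours, 183 were the same and 44 moved. For 2 hours over naive 75 were the same, 20 moved and 1 reversed. For 3 days over naive 44 were the same and 1 moved. No paired analysis was possible because each condition has 1 library. The antibody alternatives were not run, since the 5 receptor antibodies held at most 18 UMIs. At 2 hours the median of 840 UMIs per NK-like cell limits what can be read for members of low level.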
